A study of Mus musculus with 10 samples.

Results

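Adipocyte genes were followed through cutaneous squamous cell carcinomas (SCC) of mice, together with G0s2, an inhibitor of fat breakdown. The set held 10 of the 35275 genes listed for each tumor. They were the rows named Adipoq, Plin1, Cidec, Cfd, Retn, Lep, Lpl, Fabp4, Pnpla2 and G0s2, and every one was found once in all 10 tables. They were chosen by levels measured in these same tumors, since G0s2 had been seen to be high in some Ldha-null tumors and Fabp4 to part from Adipoq. Their own levels and genotype differences are therefore a description without a test.

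RNA was sequenced from 5 tumors labelled Ldha-null and 5 labelled wild type, which the series description assigns to 5 knockout and 5 wild-type mice. In the study Ldha, a lactate dehydrogenase gene, was deleted from floxed alleles by an inducible Cre in hair follicle stem cells (K15CrePR or Lgr5CreER), in tumors induced genetically or with the chemicals DMBA and TPA, on a mixed C57BL6/FVB background. Which model, Cre, age and sex each sequenced tumor had is not stated in the sources used here, and deletion in such tumors can be mosaic. The labels call the material squamous carcinoma cells, but RNA came from whole fresh tumors, so vessels, immune cells, fat and muscle could be included.

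White adipocytes store triglyceride in a single large droplet. Plin1 coats that droplet and Cidec enlarges it, and the cells secrete adiponectin (Adipoq), adipsin (Cfd), resistin (Retn) and leptin (Lep). The stored fat is released by adipose triglyceride lipase, encoded by Pnpla2, which G0s2 binds and inhibits. Lpl releases fatty acids from circulating lipoproteins, and Fabp4 carries fatty acids inside adipocytes and is also made by capillary endothelium and macrophages.

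The starts of Adipoq and G0s2 are shown first, because the comparison turns on these genes. Both are the 250 bases before the RefSeq start (GRCm38.p6), and the capitals mark CCAAT boxes on either strand.

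Adipoq, chr16:23146286-23146535, plus strand: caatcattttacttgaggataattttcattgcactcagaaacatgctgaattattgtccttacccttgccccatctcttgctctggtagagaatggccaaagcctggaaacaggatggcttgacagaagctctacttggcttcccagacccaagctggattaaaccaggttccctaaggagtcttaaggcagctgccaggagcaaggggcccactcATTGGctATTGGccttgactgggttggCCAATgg

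G0s2, chr1:193273189-193273438, minus strand: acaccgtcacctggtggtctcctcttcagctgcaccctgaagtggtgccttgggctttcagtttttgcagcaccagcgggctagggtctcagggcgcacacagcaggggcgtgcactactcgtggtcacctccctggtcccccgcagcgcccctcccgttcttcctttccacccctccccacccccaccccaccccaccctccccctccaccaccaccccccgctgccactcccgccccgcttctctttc

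The CCAAT box was present 3 times in the Adipoq sequence, beginning 34, 27 and 7 bases before the start, and these letters were not in the G0s2 window. Windows of 300 bases, 250 before and 50 after the start, were available for 8 of the 10 genes, that is all but Fabp4 and Lpl. The letters CCAAT were found on either strand in 1 of the 8 genes and in 37.4% of 32851 promoters. The TATA box letters TATAAA were in 0 of the 8 and in 13.6% of promoters. The nuclear receptor half-site AGGTCA was in 0 of the 8 and in 16.3%, and the E-box letters CACGTG were in 0 of the 8 and in 7.15%. These matches describe letters, not bound sites, and the motifs do not overlap one another.

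Total counts were 12969508 to 17694201 per tumor. Ldha itself did not separate the labels, at 246 to 1883 FPKM (counted fragments scaled to gene length and library total) under the Ldha-null label and 340.1 to 2824 FPKM under the wild-type label. Directions between genotypes below are therefore between labels. Ldha-null tumor 1 stood apart in tissue content: 12 skeletal muscle genes took 12.97% of its counts, and no other tumor exceeded 0.0257%. Ldha-null tumor 3 and wild-type tumor 5 stood apart in keratin 14, the basal keratinocyte keratin, with Krt14 at 28399 and 28691 FPKM against 138 to 4195 FPKM in the other 8 tumors.

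Adipoq encodes adiponectin, a hormone made almost only by adipocytes (ENSMUSG00000022878, mm10 chr16:23146536-23158028). Its level was 107, 1.71, 0.363, 1.18 and 5.49 FPKM for Ldha-null tumors 1 to 5, and 0.127, 5.28, 0.168, 1.23 and 0.656 FPKM for wild-type tumors 1 to 5. Ldha-null tumor 1 was 19.5 times the next highest tumor, and the remaining Ldha-null values lay inside a range that overlapped the wild-type one. The counts behind these levels were 1703, 27, 5, 18 and 83 for Ldha-null and 2, 71, 2, 20 and 9 in wild-type tumors, so 4 of the 10 tumors had fewer than 10 Adipoq fragments. In whole-tumor RNA, fewer adipocytes and less RNA per adipocyte cannot be told apart.

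The droplet coat gene Plin1 gave 417, 11, 1, 9 and 19 counts in the Ldha-null and 0, 19, 0, 10 and 1 counts in the wild-type tumors (chr7:79721164-79732776). With 0 of 17196246 and 0 of 12969508 counts, Plin1 was not detectable at this depth in wild-type tumors 1 and 3. Cidec, the droplet fusion gene (chr6:113424634-113435760), gave 78.7, 1.31, 0.116, 1.26 and 3.54 FPKM for Ldha-null tumors and 0.0507, 1.84, 0, 0.542 and 0.931 FPKM for wild-type tumors. Both genes were highest in Ldha-null tumor 1, followed by Ldha-null tumor 5 for Cidec and by Ldha-null tumor 5 and wild-type tumor 2, at 19 counts each, for Plin1.

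Adipsin, the complement protease of fat (Cfd, chr10:79890853-79892656), reached the highest FPKM of the 10 genes in any tumor. Cfd stood at 1252, 7.59, 1.799, 13.1 and 40.9 FPKM for Ldha-null and 1.70, 32.6, 0.919, 11.6 and 3.83 FPKM for wild-type tumors. Resistin (Retn, chr8:3655770-3660110) was at 98.3, 0.518, 0.264, 1.08 and 3.31 FPKM for Ldha-null and 0.0577, 2.71, 0.842, 1.23 and 0.331 FPKM for wild-type tumors. Both placed Ldha-null tumor 1 highest, then Ldha-null tumor 5 and then wild-type tumor 2, the order that Adipoq also gave.

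Leptin was close to the limit of detection (Lep, chr6:29060220-29073877). Its counts were 32, 3, 0, 3 and 1 for Ldha-null and 0, 0, 0, 1 and 1 in wild-type tumors. Ldha-null tumor 1 was the only library with more than 3 Lep fragments, and Lep and Plin1 were too low for the test across all genes.

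**Figure D1:**
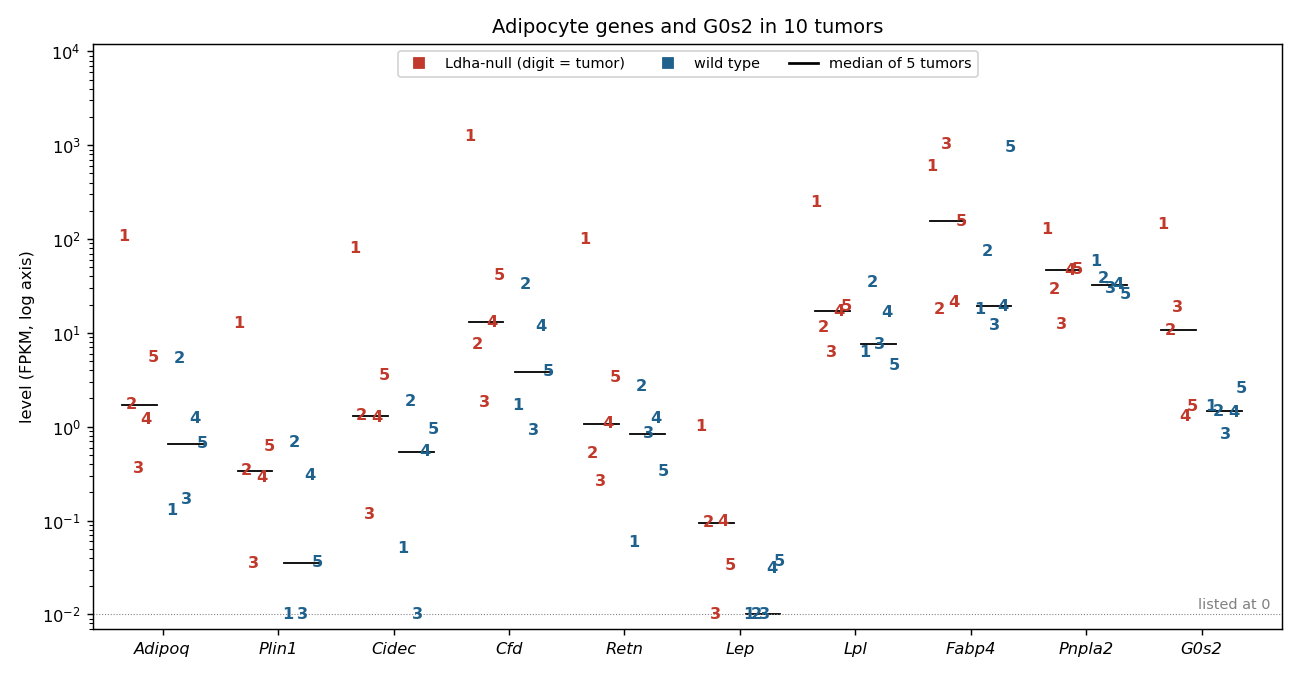
Levels of the 10 genes in each tumor (FPKM, log axis), with the digit giving the tumor number, Ldha-null in red and wild type in blue, and a bar at the median of the 5 tumors of a group. Values listed at 0 are drawn on the dotted line. Ldha-null tumor 1 was highest for all genes other than Fabp4, which was highest in Ldha-null tumor 3 (1006 FPKM) and wild-type tumor 5 (949.5 FPKM).

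To compare the genes within a tumor, each count was divided by the Adipoq count of the same library, a ratio that does not depend on depth or scaling. Cfd gave 11.8 counts per Adipoq count in Ldha-null tumor 1 (95% exact interval 11.2 to 12.4) and 4.48 to 13.5 in the other 9 tumors. The Cidec ratio was 0.922 in that tumor, 0.963 in Ldha-null tumor 2 and 0.807 in Ldha-null tumor 5. For Plin1 the ratio was 0.245 in Ldha-null tumor 1, 0.229 in Ldha-null tumor 5 and 0.268 in wild-type tumor 2. Over the 6 tumors with at least 10 Adipoq counts the ratio varied 2.18-fold for Plin1, 2.63-fold for Cfd, 3.05-fold for Cidec and 3.3-fold for Retn, while the Adipoq level of Ldha-null tumor 1 was 90.2 times the median of the other 9 tumors.

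Over the same 6 tumors the ratio varied 5.08-fold for Fabp4, 22.8-fold for G0s2 and 33.0-fold for Pnpla2, more than for Plin1, Cfd, Cidec and Retn. The wide range of Adipoq among these 6 rested on Ldha-null tumor 1. In the rest of them Adipoq ran from 1.18 to 5.49 FPKM. Over the 9 tumors without Ldha-null tumor 1, the Spearman correlation of log2 CPM (counts scaled to library size) with Adipoq was 0.979 for Plin1, 0.917 for Cidec, 0.900 for Cfd and 0.800 for Retn, and Pearson's r was 0.955, 0.922, 0.963 and 0.823. Correlations are given without a p-value, and their points share libraries and depth. Among 13620 genes ranked by likeness to Adipoq over 10 tumors, 3 stood above Cidec and 7 above Cfd. The 5 most alike were Reep1, Car3, a carbonic anhydrase of fat and muscle, Gpd1l, Cidec and Fam118b (Spearman 0.939 to 0.976), and without Ldha-null tumor 1 they were Sfrp2, Car3, Reep1, Cd300e and Cd79b (0.933 to 0.983).

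**Figure D2:**
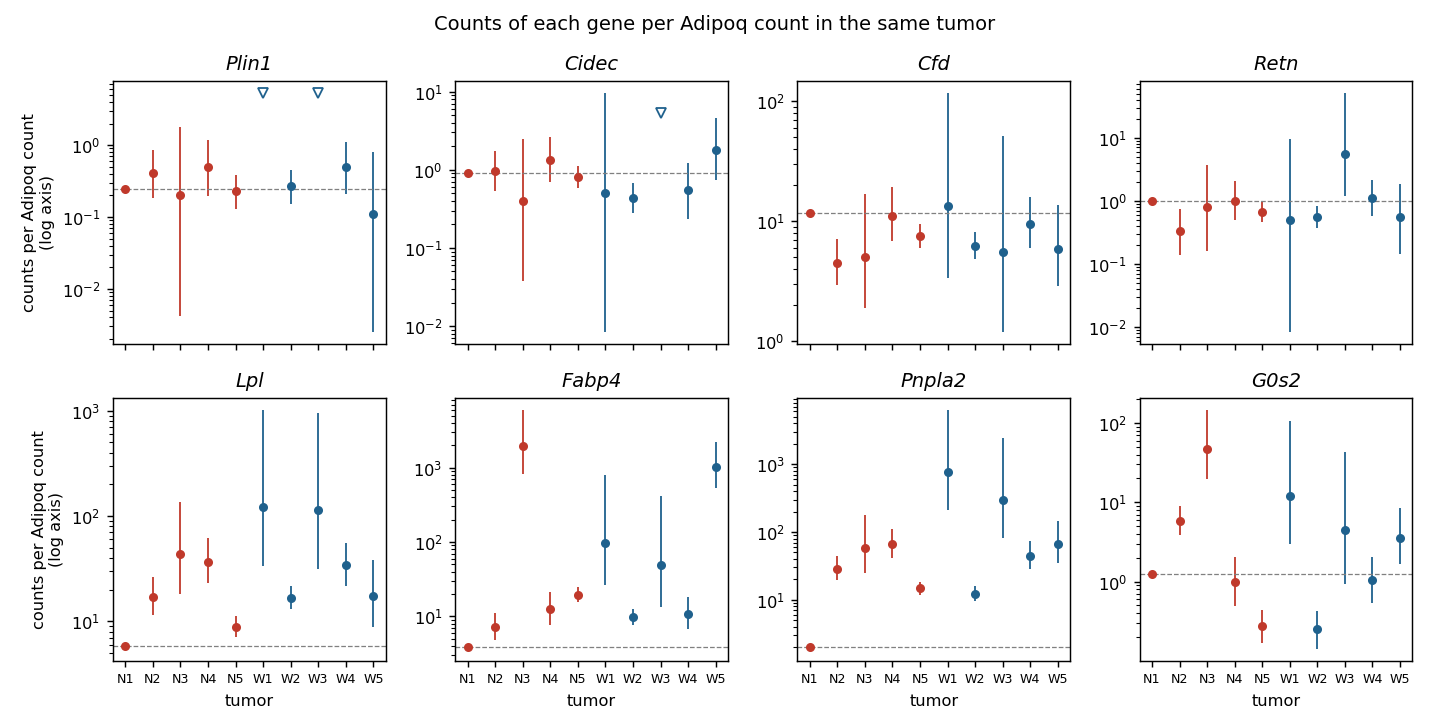
Counts of 8 genes per Adipoq count in the same tumor (log axis), for Ldha-null (N, red) and wild-type (W, blue) tumors, with 95% exact intervals that cover counting error only. The dashed line is the ratio in Ldha-null tumor 1, and an open triangle is the upper limit where the count was 0. G0s2 ran from 0.254 in wild-type tumor 2 to 47.0 in Ldha-null tumor 3, and Cfd only from 4.48 to 13.5.

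Lpl, which clears lipoprotein triglyceride (chr8:68880491-68907448), correlated with Adipoq about as Retn did but varied more per Adipoq count. It was at 243, 11.5, 6.21, 17.1 and 19.2 FPKM for Ldha-null and 6.14, 34.6, 7.57, 16.5 and 4.45 FPKM for wild-type tumors. Ldha-null tumor 1 was highest and wild-type tumor 2 next, but no tumor was below 155 counts, including those with 2 Adipoq counts. Per Adipoq count Lpl was 5.78 in Ldha-null tumor 1. It was 123 (33.6 to 1017) and 114 (31.2 to 947) in wild-type tumors 1 and 3, with 2 Adipoq counts each. Over the 6 tumors with at least 10 Adipoq counts the Lpl ratio varied 6.33-fold, against 3.3-fold for Retn. Over all tumors it varied 21.2-fold, against 16.5-fold for Retn, whose ratio was 5.5 in wild-type tumor 3. The correlation of Lpl with Adipoq over the 9 tumors was 0.817 (Spearman) and 0.824 (Pearson), against 0.800 and 0.823 for Retn.

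Pnpla2, the lipase that starts triglyceride breakdown (chr7:141455198-141460743), varied least among the 10 genes. Its level was 127, 28.9, 12.4, 46.6 and 47.9 FPKM for Ldha-null and 57.3, 38.4, 29.5, 32.6 and 25.8 FPKM for wild-type tumors. Ldha-null tumor 1 was 3.91 times the median of the other 9 tumors, against 90.2 times for Adipoq and 165 times for Cfd. Over those 9 tumors the Spearman correlation of Pnpla2 with Adipoq was 0.05 and with the skeletal muscle list 0.767. With the fat-restricted list, defined below, it was 0.6, and with the further adipocyte genes -0.02.

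G0s2, the inhibitor of the Pnpla2 lipase (ENSMUSG00000009633, chr1:193272161-193273188, minus strand), was high in 3 of the 5 Ldha-null tumors. It was at 144, 10.7, 18.5, 1.29 and 1.66 FPKM for Ldha-null tumors 1 to 5 and at 1.66, 1.46, 0.824, 1.41 and 2.54 FPKM for wild-type tumors 1 to 5. The groups overlapped, because Ldha-null tumors 4 and 5 lay within the wild-type range. In counts, Ldha-null tumors 1, 2 and 3 held 2109, 156 and 235 fragments, and the other 7 tumors 9 to 32.

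G0s2 did not move in step with the adipocyte genes. Per Adipoq count it was 1.24 in Ldha-null tumor 1 (95% exact interval 1.16 to 1.32), 5.78 in Ldha-null tumor 2 (3.82 to 9.05) and 47.0 in Ldha-null tumor 3 (19.9 to 146). In the next most Adipoq-rich tumors the ratio was below that of Ldha-null tumor 1, at 0.277 in Ldha-null tumor 5 (0.167 to 0.444) and 0.254 in wild-type tumor 2 (0.142 to 0.430). These intervals cover counting error within a library only, not the spread between tumors, so they do not test a difference. The fragments carry no molecular identifiers, so copies of the same molecule cannot be told apart.

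The same contrast can be put as the G0s2 count that each tumor would hold at the G0s2 to Adipoq ratio of Ldha-null tumor 1. Ldha-null tumor 3 held 235 counts where that ratio gives 6.19, or 38.0 times as many. Ldha-null tumor 2 held 156 where it gives 33.4, or 4.67 times as many. Wild-type tumors 1, 3 and 5 also exceeded it, at 9.69, 3.63 and 2.87 times, on 2, 2 and 9 Adipoq counts. Ldha-null tumor 4 and wild-type tumor 4 were at 0.807 and 0.848 times. In Ldha-null tumor 5 the count of 23 was 0.224 times the 103 given by the ratio, and in wild-type tumor 2 the count of 18 was 0.205 times the 87.9.

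Across the 10 tumors the correlation of G0s2 with Adipoq was 0.212 (Spearman) and 0.681 (Pearson). Without Ldha-null tumor 1 it was -0.08 and -0.07, so the Pearson value rested on that tumor. With the mean of the fat-restricted list, defined below, the Spearman correlation was -0.03 over 10 tumors and -0.42 over 9. In the order of likeness to G0s2, 5052 of 13620 genes stood above Adipoq over 10 tumors and 7329 over 9.

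G0s2 per unit of its target lipase was highest in the tumors with the highest G0s2. G0s2 was chosen for that level and varied more than Pnpla2, so the ratio largely repeats it. On the FPKM scale G0s2 over Pnpla2 was 1.13, 0.372 and 1.49 in Ldha-null tumors 1, 2 and 3, and 0.0276 to 0.0984 in the other 7. Ldha-null tumor 3 had the lowest Pnpla2 of all tumors. In counts the ratio was 0.615 and 0.813 in Ldha-null tumors 1 and 3, and FPKM of the 2 genes compare only on the authors' gene lengths. The Spearman correlation of G0s2 with Pnpla2 over the 9 tumors was -0.43.

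The genes whose levels were most like G0s2 over 10 tumors were Clcc1, a chloride channel gene, Zfp748, Psme4, a proteasome activator, Etfdh, an electron transfer dehydrogenase of fatty acid oxidation, and Skiv2l2 (Spearman 0.976 to 0.988). Without Ldha-null tumor 1 they were Vav3, a guanine nucleotide exchange factor, Zfp748, Clcc1, Skil, a repressor of SMAD signalling, and the histone gene H2afz (0.967 to 1). Picked as the top of 13620 genes over so few tumors, such values are high by selection, here and for Adipoq and Fabp4. Clcc1 ran only from 12.7 to 25.1 FPKM over the 9 tumors. Vav3 stood at 19.6 and 34.6 FPKM for Ldha-null tumors 2 and 3 and at 7.68 to 15.6 FPKM in the other 7 of those 9 tumors. In Ldha-null tumor 1, the highest for G0s2, Vav3 was lowest, at 2.88 FPKM.

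Other tissue markers differed between the G0s2-high tumors, and their part in the G0s2 level was not tested. Ldha-null tumor 2 had the highest summed macrophage list, 10672 FPKM over 10 genes, against 185 FPKM in Ldha-null tumor 1, with 1705 FPKM in Ldha-null tumor 3. Ldha-null tumor 3 had the highest neutrophil list, 4931 FPKM, and a keratinocyte list of 38004 FPKM. Wild-type tumor 5 had a keratinocyte list of 38488 FPKM with G0s2 at 2.54 FPKM.

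A neighbouring gene was checked because the strand of the fragments is not known. No other gene listed in the tables overlapped any of the 10, but GENCODE vM21 extends Lamb3, a laminin gene of basal keratinocytes on the opposite strand, across G0s2. Lamb3, named here after its values were seen, was at 9.18, 5.81, 45.3, 6.10 and 4.51 FPKM for Ldha-null and 1.03, 5.44, 5.39, 2.21 and 163 FPKM for wild-type tumors. Lamb3 was highest in wild-type tumor 5 and Ldha-null tumor 3, where G0s2 was at 2.54 and 18.5 FPKM, and the part of Lamb3 fragments in the G0s2 counts was not tested.

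**Figure D3:**
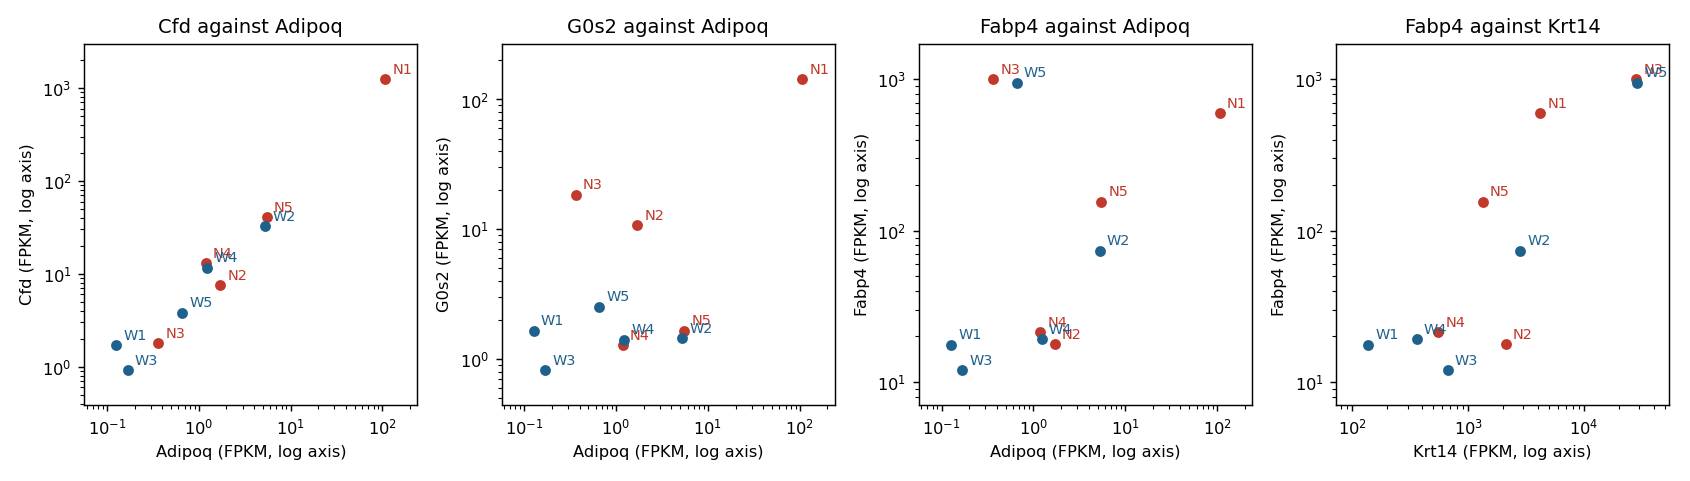
Levels of Cfd, G0s2 and Fabp4 against Adipoq, and of Fabp4 against Krt14, in Ldha-null (N, red) and wild-type (W, blue) tumors (FPKM, log axes). Cfd lies along 1 line with Adipoq, G0s2 is raised in N2 and N3 at Adipoq levels of 1.71 and 0.363 FPKM, and Fabp4 is highest in N3 and W5, the tumors with the highest Krt14.

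Fabp4, the adipocyte fatty acid binding protein (ENSMUSG00000062515, chr3:10204347-10208576), parted from Adipoq in Ldha-null tumor 3 and wild-type tumor 5. It was at 596, 17.7, 1006, 21.3 and 155 FPKM for Ldha-null and 17.6, 73.8, 11.98, 19.3 and 949.5 FPKM for wild-type tumors. In both parting tumors Fabp4 exceeded Ldha-null tumor 1, while Adipoq was at 5 and 9 counts. One tumor of each genotype showed this pattern.

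Per Adipoq count, Fabp4 was 3.88 in Ldha-null tumor 1 (95% exact interval 3.68 to 4.09) and 7.22, 12.5 and 19.7 in Ldha-null tumors 2, 4 and 5. It was 9.72 and 10.9 in wild-type tumors 2 and 4, and 96.5 and 49.5 in wild-type tumors 1 and 3, which had 2 Adipoq counts each. In Ldha-null tumor 3 the ratio was 1929 (826 to 5944) and in wild-type tumor 5 it was 1007 (530.4 to 2204). With both of these and Ldha-null tumor 1 left out, Fabp4 and Adipoq correlated at 0.786 (Spearman, 7 tumors), against 0.406 over 10 tumors. That choice removes the tumors already seen to part, so a higher value follows from it and is no test. Without Ldha-null tumor 1 and wild-type tumor 1 the correlation was 0.0238.

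Fabp4 correlated over the tumors with the mean log2 level of several lists, keratinocyte markers among them. Its Spearman correlation with the mean of 10 keratinocyte genes was 0.903 over 10 tumors and 0.883 without Ldha-null tumor 1 (Pearson 0.943 and 0.949). It was also high with other lists, at 0.915 and 0.933 for lipolysis, 0.879 and 0.85 for sebaceous gland and 0.842 and 0.8 for triglyceride synthesis genes. In summed FPKM the lipolysis list was at 359 in Ldha-null tumor 3 and 551 in wild-type tumor 5, with 301 to 527 in the other tumors. In the 7 tumors left without wild-type tumor 5 and Ldha-null tumors 1 and 3, the Spearman correlation of Fabp4 was 0.75 with keratinocyte genes (Pearson 0.693) and 0.786 with Adipoq (Pearson 0.828). With the capillary endothelium list it was 0.297 and 0.183, but -0.21 on the FPKM scale and 0.55 without wild-type tumor 5, and with the macrophage list it was -0.62 and -0.52. Which cells the Fabp4 fragments came from was not tested.

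The gene most like Fabp4 over both 10 and 9 tumors was Scel, which encodes sciellin of the cornified envelope, at 16.5 and 10.3 FPKM in Ldha-null tumor 3 and wild-type tumor 5 and 0.379 to 3.12 FPKM elsewhere. Ttc39a was second in both orders. Xkrx, Sdr16c6 and Lrrc8e completed the first 5 over 10 tumors (Spearman 0.964 to 0.976), and Lrrc8e, Ppfibp2 and Epb4.1l4b over 9 (0.967 to 0.983). Above Adipoq in this order stood 3051 of 13620 genes.

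Fabp5, the epidermal fatty acid binding protein whose gene lies 188 kb from Fabp4, was the only other tested gene of its family. It was at 310, 123, 2920, 46.0 and 184 FPKM for Ldha-null and 27.5, 257, 98.6, 27.2 and 1656 FPKM for wild-type tumors. Both parting tumors were highest for Fabp5 as well, and the Spearman correlation of Fabp4 with Fabp5 was 0.842 over 10 tumors. Cidea, a droplet gene of brown fat and sebaceous glands, was also highest there, at 17.0 and 8.31 FPKM against 0.265 to 4.25 FPKM in the other tumors. Other sebaceous list genes did not all follow. Krt79 was at 20.7 and 14.1 FPKM in the parting tumors, with 1.44 to 19.3 FPKM in the others, so only Ldha-null tumor 3 lay above that range. Elovl3, at 1.29 and 2.55 FPKM, and Far2, at 0.889 and 1.46 FPKM, lay inside the range of the other tumors. Of genes named after their values were seen, Dgat2, the last enzyme of triglyceride synthesis, was at 28.1 and 34.2 FPKM in these tumors, 34.0 FPKM in Ldha-null tumor 1, with 1.63 to 4.32 FPKM in the rest.

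Between genotypes, 0 of 15176 tested genes were called by the quasi-likelihood test of edgeR (0.0%, smallest adjusted p 0.999), 541 (3.56%) were higher in Ldha-null tumors at an unadjusted p below 0.05 and 60 (0.395%) were lower. The 8 tested genes of the set are described without a test. Their log2 fold changes, Ldha-null over wild type, were 5.56 for Cfd, 5.45 for Cidec, 5.21 for G0s2, 5.16 for Retn, 4.78 for Adipoq, 2.87 for Lpl, 1.07 for Fabp4 and 0.996 for Pnpla2.

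Ldha-null tumor 1 set most of these values. Without it the log2 fold changes were 0.55 for Cfd, 1.09 for Cidec, 0.24 for Retn, 0.47 for Adipoq, -0.07 for Lpl, 0.58 for Fabp4 and -0.17 for Pnpla2, whereas G0s2 was at 2.45. In means, Adipoq was 23.1 ± 20.95 FPKM for Ldha-null and 1.49 ± 0.967 FPKM for wild-type tumors (SEM, n = 5 each), and 2.19 ± 1.14 FPKM in the 4 Ldha-null tumors left. G0s2 was 35.2 ± 27.4 FPKM and 1.58 ± 0.277 FPKM, and 8.05 ± 4.12 FPKM in those 4 Ldha-null tumors. For Fabp4, with means of 359 ± 193 and 214 ± 184 FPKM, leaving out wild-type tumor 5 raised the log2 fold change to 4.08, and leaving out Ldha-null tumor 3 brought it to 0.41.

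The wider adipocyte programme was described with lists of genes outside the set, read against medians over all tested genes of 0.02 with and -0.01 without Ldha-null tumor 1 (log2 fold change). Of 11 fat-restricted genes, all 11 were highest in Ldha-null tumor 1, as were 12.3% of all tested genes. Only 5 of the 11 were expressed enough to be tested, with 3 higher and 0 lower at an unadjusted p below 0.05 and a median log2 fold change of 3.22, which was 0.26 without Ldha-null tumor 1. Thrsp, a regulator of lipogenesis, was at 121 FPKM in that tumor, with 0.052 to 1.38 FPKM in the others, and the droplet gene Plin4 at 31.0 against 0.115 to 1.11 FPKM. Mrap and Tusc5 completed the 4 highest, with log2 fold changes of 3.22 and 1.49. The summed fat-restricted list was 228 FPKM in Ldha-null tumor 1, with 1.97 to 8.05 FPKM in the others.

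Of 17 further adipocyte genes, all tested, 6 were higher and 0 lower at an unadjusted p below 0.05, with a median of 1.17 (0.18 without Ldha-null tumor 1, when 0 of the 17 reached that p). The 6 were Car3 and, named after their values were seen, Gpd1, Slc2a4, Scd1, Acsl1 and Cd36. All were highest in Ldha-null tumor 1, the muscle-rich tumor, and whether their RNA came from fat or muscle was not tested. Acsl1 is counted again below among triglyceride synthesis genes, and Cd36 among fatty acid uptake genes. Car3 was at 3517 FPKM in Ldha-null tumor 1, with 1.07 to 11.6 FPKM elsewhere. The lipogenic enzymes Acly (71.4 ± 9.15 and 71.7 ± 16.8 FPKM for Ldha-null and wild-type tumors) and Fasn (53.7 ± 10.8 and 52.7 ± 18.1 FPKM) were abundant in both genotypes. Sncg, gamma-synuclein, had a log2 fold change of -1.39. In the brown fat list 1 of 5 tested genes, Elovl3, was higher, Dio2 was at -0.18, Cidea at 1.503 and Kng2 at 0.61, and Ucp1, the defining gene of brown fat, untested and named after its values were seen, was at 0 to 0.141 FPKM in all tumors.

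Among 13 tested lipolysis genes that act around Pnpla2 and G0s2, 0 were higher and 0 lower at an unadjusted p below 0.05 (edgeR), with a median of 0.23 (-0.06 without Ldha-null tumor 1). The droplet coat genes Plin2 and Plin3 had log2 fold changes of -0.38 and -0.28, Faf2 -0.34 and the kinase gene Prkaca 0.23. Abhd5, the activator of the Pnpla2 lipase, named after its values were seen, was at 19.1 to 49.1 FPKM for Ldha-null and 12.2 to 31.1 FPKM for wild-type tumors, which overlapped. Fabp4 correlated with the mean of this list at 0.915 (Spearman, 10 tumors) and G0s2 at 0.479.

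Triglyceride synthesis genes were higher for 3 of 12 tested and lower for 0 at that p, with a median of 0.85 (0.12 without Ldha-null tumor 1). Its most abundant genes were Dgat1 (log2 fold change -0.13), Bscl2 (0.13), Agpat2 (-0.19) and Lpin2 (-0.35). Among the partners of Lpl and fatty acid uptake genes, 2 of 12 were higher and 0 lower, with a median of 0.15 (0.02). Angptl4, an inhibitor of Lpl, was at 2.36, 31.8, 9.13, 42.3 and 51.2 FPKM for Ldha-null and 125, 36.7, 37.0, 76.8 and 24.8 FPKM for wild-type tumors. It was lowest in Ldha-null tumor 1, where Lpl was highest. Sel1l, Slc27a1 and Slc27a4 were at -0.10, 0.49 and 0.12.

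The adiponectin receptors were broadly expressed, with Adipor1 at 89.0 ± 12.8 and 73.1 ± 4.99 FPKM and Adipor2 at 60.6 ± 12.3 and 66.6 ± 19.4 FPKM for Ldha-null and wild-type tumors. The leptin receptor gene Lepr, named after its values were seen, ran from 0.916 FPKM in Ldha-null tumor 1 to 36.8 FPKM in wild-type tumor 3. The list of adipokine receptors and the resistin family also held Cdh13 (-0.29) and Nampt (1.03). Of its 9 tested genes, 0 were higher or lower at an unadjusted p below 0.05 and the median was 0.64 (-0.09 without Ldha-null tumor 1). In the PPAR gamma network 2 of 12 were higher and 0 lower, with a median of 0.32 (-0.04), and Cebpb, Cebpd, Srebf1 and Cebpa lay between -0.22 and 0.16. The alternative complement pathway, which Cfd activates, had 0 of 6 at that p and a median of -0.22 (-0.03), with Cfp at -0.29, C3 at 0.93, C5ar1 at -0.36 and C3ar1 at -0.15.

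Markers of other cell types were read in the same way, with 0.974% of 15510 tested genes higher at an unadjusted p below 0.05 once Ldha-null tumor 1 was left out. Of 11 tested skeletal muscle genes, all 11 were higher at an unadjusted p below 0.05, with a median of 8.81 (-0.37 without Ldha-null tumor 1). Muscle and fat genes were highest in the same tumor, and whether the muscle and fat signals shared a source was not tested. Capillary endothelium had 3 of 11 higher and 0 lower (median 0.49, and 0.46 with 2 higher without Ldha-null tumor 1), including Pecam1 and Gpihbp1, the protein that anchors Lpl in capillaries, at 27.1 ± 3.44 and 17.4 ± 2.40 FPKM. Esam was at 0.29 and Aqp1 at -0.17.

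Sebaceous gland genes had 3 of 5 higher and 0 lower (median 1.38, and 1.46 with 2 higher without Ldha-null tumor 1), with Krt79 at 15.02 ± 2.46 and 6.04 ± 2.33 FPKM, Elovl3 at 4.10 ± 0.854 and 1.74 ± 0.400 FPKM and Far2 at a log2 fold change of 0.86. Keratinocyte genes had 3 of 10 higher and 0 lower (median 0.42, and 0.47 with 1 higher), with Krt14 at 0.34, Krt5 at -0.50, Perp at 0.63 and Sfn at -0.09. Macrophage (10 tested, median -0.11), neutrophil (5 tested, 0.97) and fibroblast and preadipocyte genes (7 tested, -0.14) had 0 at that p, and without Ldha-null tumor 1 their medians were 0.13, 0.93 and 0.11, so that 2 of the 3 changed sign. Their most abundant genes, Lyz2, S100a8 and Col1a1, were at -0.16, 1.13 and -0.44. In Ldha-null tumor 1 the macrophage and fibroblast lists were the lowest of all tumors, at 185 and 206 FPKM against 875 to 10672 and 944 to 4693 FPKM.

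**Figure D4:**
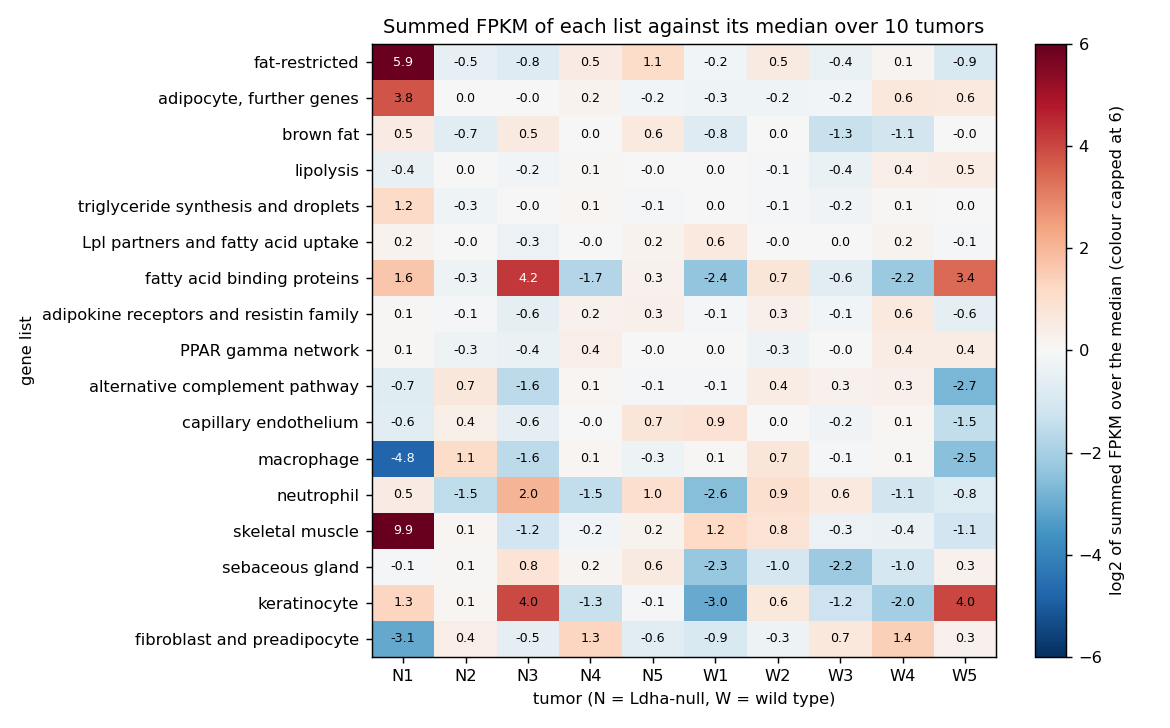
Summed FPKM of each gene list in each tumor as log2 of the ratio to the list's median over 10 tumors, with red above and blue below the median. In N1 the fat-restricted list is at 5.9 and the skeletal muscle list at 9.9, the colour being capped at 6, whereas the keratinocyte and fatty acid binding protein lists are highest in N3 and W5.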

How the data were processed

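RNA-seq of 10 mouse SCC tumors, 5 per genotype label, was used as deposited, with 0 columns left unmapped. Per the labels, bases were called with CASAVA 1.8 and reads aligned to mm10 with TopHat2; the authors counted fragments per gene, and the deposited whole-number counts were used as such. The deposited FPKM were computed by the authors with a gene length that matched the listed one within 1% for 3 of the 10 genes, so levels of different genes compare only on the authors' lengths. Strandedness of counting is not given in the sources used here. Members and gene lists were chosen with earlier results of these data known. 

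The genotype test was that of edgeR 4.0.16 under R 4.3.3 (filterByExpr with a minimum count of 10 and total of 15, TMM, quasi-likelihood F-test, Benjamini-Hochberg threshold 0.05), checked on simulated counts. The biological coefficient of variation was 63.4%. Alternatives used DESeq2 1.42.0, limma 3.58.1, other scalings and filters, a tumor-number block and fewer tumors. Correlations used log2 CPM with a prior count of 2, and list levels the mean over tested genes. Likeness was ranked among tested genes averaging 1 FPKM or more. Named genes were the 10 members, Ldha, the 4 tested genes of each list with the highest mean FPKM and the 5 genes most like G0s2, Fabp4 and Adipoq, with others marked as chosen after their values were seen. Intervals are exact binomial at 95% and cover counting error only. Total counts of 12969508 to 17694201 per tumor limit genes with few fragments. P-values set the difference between labels against the spread between these tumors. One detail of the tumor model is not reported here.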

Additional observations from a re-analysis of the deposited data

Results flagged for a closer look

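For each gene list and each group of 5 tumors, the gap between the most extreme tumor and its neighbour was divided by the range of the group and compared with Dixon's critical value of 0.71. Of 34 such groups, 7 exceeded it. A rate of about 1 in 20 gives 1.7, but only for independent groups chosen without sight of the data. Here the same tumors recur in every list, and the lists share some genes and were chosen with results of these data known. The 7 therefore cannot be set against 1.7, and the flags are a description without a test. Ldha-null tumor 1 was the highest for the fat-restricted list (0.723), the further adipocyte genes (0.907) and the skeletal muscle list (0.912). Wild-type tumor 5 was the lowest of its group for the Lpl partners and fatty acid uptake list (0.735) and the macrophage list (0.724). Wild-type tumor 1 was lowest for the PPAR gamma network (0.861) and wild-type tumor 3 for the brown fat list (0.718).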

How the results depend on the processing

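The number of genes called was 0 under 17 of 18 alternatives and 1 with DESeq2, G0s2, a gene chosen on these tumors. Genes at an unadjusted p below 0.05 numbered 601 in all, 1308 without a filter on low counts, 251 without wild-type tumor 5 and Ldha-null tumors 1 and 3, and 321 with limma-voom. They numbered 194 without Ldha-null tumor 1, 1077 without Ldha-null tumor 4, and 385, 397 and 1090 without wild-type tumors 1, 4 and 5. With the tumor number as a replicate block 0 genes were called and 120 had that p; the numbers mark no stated pairing, their deviations correlated at -0.51 to 0.551, and 2 of 10 tumors correlated best with their own number. The Spearman correlation of G0s2 with Adipoq ran from -0.083 to 0.333 with 1 tumor left out and was 0.0476 without Ldha-null tumor 1 and wild-type tumor 1. For Fabp4 with Adipoq the range was 0.2 to 0.65, with 0.0238 without the same pair and 0.786 without the 3 tumors set apart. For G0s2 with the fat-restricted list it was -0.42 to 0.15, with -0.26 without Ldha-null tumor 1 and wild-type tumor 5. For Fabp4 with capillary endothelium it was 0.15 to 0.55, with -0.21 on both FPKM scales, 0.548 without that pair and 0.536 without the 3 tumors. For Fabp4 with keratinocyte genes, an alternative added after seeing the data, it was 0.867 to 0.95, with 0.833 without Ldha-null tumors 1 and 3 and 0.75 without the 3 tumors. The cause of these shifts was not tested. The log2 fold change of G0s2 stayed positive, at 1.32 to 5.52, and that of Lpl and Pnpla2 turned negative under 2 alternatives each. Low counts of Adipoq, Plin1 and Lep limit every ratio in tumors with few fragments.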
